A study of Mus musculus with 9 samples.

Results

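The subject is a set of 10 melanocyte and pigment genes in the dermis of the mouse ear. They were Tyr, Tyrp1, Dct, Pmel, Mlana, Mitf, Oca2, Slc45a2, Slc24a5 and Mc1r, taken by their symbols from a table of read counts with 52550 genes. All 10 were found, and all 10 passed the filter on low counts, which left 22430 genes for testing. Messenger RNA was sequenced in 9 libraries, 3 in each of 3 groups. Every group held wild-type C57BL/6 mice of 8 weeks, and all 3 groups received a cream for 5 days and a gavage for 10 days. VAS+H2O, the control, received vaseline and water. IMQ+H2O received imiquimod, which produces psoriasis-like skin inflammation in mice, and water. IMQ+XYF received imiquimod together with XYF (Xiao-Yin-Fang), a mixture of powdered extracts of 5 medicinal herbs dissolved in water, at 23.3 mg/g in 200 µl. The study's methods add that the mice were male C57BL/6J, that dispase was used to separate dermis from epidermis, and that the RNA came from ear skin of a pair of mice. Pooling of mice within a library could not be settled from them, so p-values measure the spread between these libraries, which may be partly technical. C57BL/6 mice carry the nonagouti allele and have black fur.

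Melanin is made in melanosomes, organelles of the melanocyte. Tyrosinase, encoded by Tyr, starts the synthesis from tyrosine, and the related enzymes encoded by Tyrp1 and Dct act further along the path to black eumelanin. Pmel forms the fibrils on which melanin is laid down, Mlana helps Pmel to mature, and Slc24a5, Slc45a2 and Oca2 encode transport proteins that set the ion content and acidity of the organelles. Mc1r is the receptor for melanocyte-stimulating hormone, and its signal raises Mitf, the transcription factor that drives most of the other genes. Melanocytes of mouse skin sit in growing hair follicles and, in ear skin, also outside them in the dermis. Mitf is not specific to melanocytes, since mast cells and macrophages also use it.

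MITF is known to bind the sequence CATGTG, and the 250 bases before the transcription start were therefore read for the members. Promoters from RefSeq (GRCm38.p6) were found for 7 of the 10 genes, 9 promoters in all, because Mitf had 3. Those of Pmel, Mlana and Slc45a2 were not used here. The sequences before Tyr (chr7:87493513-87493762, minus strand), Tyrp1 (chr4:80833963-80834212, plus strand) and Dct (chr14:118052247-118052496, minus strand) are shown because these genes encode the melanin enzymes. Each is printed 5′ to 3′ on the strand of its gene, with CATGTG, or CACATG where the match is on the opposite strand, in capitals.
Tyr: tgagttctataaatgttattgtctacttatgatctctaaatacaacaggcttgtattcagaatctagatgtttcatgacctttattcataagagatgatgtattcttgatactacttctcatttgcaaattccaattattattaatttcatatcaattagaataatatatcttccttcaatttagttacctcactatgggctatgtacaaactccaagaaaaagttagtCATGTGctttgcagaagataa
Tyrp1: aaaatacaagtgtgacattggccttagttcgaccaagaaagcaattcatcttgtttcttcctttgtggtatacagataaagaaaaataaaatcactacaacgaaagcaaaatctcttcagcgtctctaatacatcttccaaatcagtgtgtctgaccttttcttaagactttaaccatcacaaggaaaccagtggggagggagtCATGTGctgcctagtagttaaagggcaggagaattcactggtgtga
Dct: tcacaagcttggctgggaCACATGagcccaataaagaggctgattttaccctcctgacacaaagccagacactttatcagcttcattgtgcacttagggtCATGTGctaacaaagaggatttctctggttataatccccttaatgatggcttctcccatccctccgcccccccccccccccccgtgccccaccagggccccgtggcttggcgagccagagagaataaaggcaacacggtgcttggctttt
The match in the Tyr sequence began 21 bases before the RefSeq start, and that of Tyrp1 began 46 bases before it. The GENCODE gene span of Tyrp1, given below, begins inside its window and before the match, so the 2 annotations differ there. The Dct sequence held 2 matches, at 150 bases on the gene's strand and at 232 bases on the opposite strand. CATGTG on either strand was present for 6 of the 7 genes, all but Mitf. Counted by promoter, it was in 6 of the 9, against 12.3% of 32851 promoters of the same length. The longer form TCATGTG, which contains CATGTG, was present for 5 of the 7 genes, all but Mitf and Oca2. It was in 5 of the 9 promoters, against 3.25% of all promoters. CACGTG, another sequence that MITF can bind, was in 0 of the 9 promoters and in 6.02% of all promoters. A match describes the letters in this window and does not show that a factor was bound there.

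Total counts ran from 28756305 to 79836881 per library. Expression is given as CPM, counts relative to library size scaled by the TMM factors of edgeR. A floor of 3 counts corresponded to between 0.0373 and 0.103 CPM, for counting error only. Levels were compared between genes only per kilobase of exon, as the mean over the 9 libraries. Pmel at 6.00 and Mlana at 5.92 CPM per kb were the highest, and their difference was small against the spread between libraries. Tyrp1 at 4.31, Mitf at 4.05 and Dct at 2.90 CPM per kb followed. Slc24a5 had 1.29 and Tyr 0.368 CPM per kb. Mc1r at 0.142, Slc45a2 at 0.125 and Oca2 at 0.103 CPM per kb were the lowest, with differences again small against the spread. Exon length was that of all annotated exons together, so genes with long or alternative transcripts can appear low on this scale.

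The enzymes of melanin synthesis had the highest mean in VAS+H2O, but none of the 3 separated the groups. Dct (ENSMUSG00000022129; chr14:118012790-118052244, minus strand, 9 exon blocks) had CPM of 15.7, 26.4 and 29.2 in VAS+H2O, 11.8, 25.6 and 10.6 in IMQ+H2O and 10.3, 7.77 and 16.6 in IMQ+XYF. The means were 23.8 ± 7.09, 16.0 ± 8.36 and 11.6 ± 4.57 CPM (SD, n = 3). IMQ+H2O replicate 2 stood close to the upper VAS+H2O libraries, and IMQ+XYF replicate 3 stood above the lowest of them, so the groups overlapped. Tyrp1 (ENSMUSG00000005994; chr4:80834123-80851719, plus strand, 8 exon blocks) had CPM of 8.97, 19.9 and 14.1 in VAS+H2O, 6.72, 13.2 and 10.2 in IMQ+H2O and 11.6, 6.26 and 18.8 in IMQ+XYF. The highest libraries came from VAS+H2O and IMQ+XYF and the lowest from IMQ+XYF and IMQ+H2O, so its groups overlapped too. Tyr (ENSMUSG00000004651; chr7:87424771-87493512, minus strand, 6 exon blocks) had CPM of 2.77, 3.64 and 3.99 in VAS+H2O, 1.58, 4.17 and 2.01 in IMQ+H2O and 1.42, 1.08 and 2.87 in IMQ+XYF. Its highest value lay in IMQ+H2O and its lowest in IMQ+XYF.

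The structural melanosome genes followed the same libraries. Pmel (ENSMUSG00000025359; chr10:128704195-128720238, plus strand, 13 exon blocks) had CPM of 16.1, 16.5 and 22.9 in VAS+H2O, 9.78, 20.1 and 7.55 in IMQ+H2O and 7.94, 5.61 and 17.3 in IMQ+XYF. IMQ+H2O replicate 2 and IMQ+XYF replicate 3 lay within the VAS+H2O values, and the other libraries that received imiquimod lay below them. Mlana (ENSMUSG00000024806; chr19:29697824-29708634, plus strand, 5 exon blocks) had CPM of 5.77, 7.59 and 9.49 in VAS+H2O, 5.37, 9.85 and 3.88 in IMQ+H2O and 3.48, 2.85 and 8.00 in IMQ+XYF. Here IMQ+H2O replicate 2 was above every VAS+H2O library. Pmel shares 105 exon bases with Dgka and 34 with Cdk2, both on the opposite strand, and the use of strand in counting was not stated.

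The transporters were less abundant. Slc24a5 (ENSMUSG00000035183; chr2:125068124-125088677, plus strand, 10 exon blocks) had CPM of 2.89, 4.22 and 4.53 in VAS+H2O, 1.65, 5.63 and 1.72 in IMQ+H2O and 1.82, 1.06 and 3.60 in IMQ+XYF. The value in IMQ+H2O replicate 2 was the highest of all, while the other IMQ+H2O libraries lay below every VAS+H2O library. Slc24a5 shares 921 exon bases with Myef2 on the opposite strand. Myef2 had between 19.7 and 31.5 CPM, with its highest value in IMQ+XYF replicate 2, where Slc24a5 was lowest. Slc45a2 (ENSMUSG00000022243; chr15:11000721-11029233, plus strand, 7 exon blocks) had only 4 to 79 counts per library, or CPM of 0.461, 0.139 and 1.06 in VAS+H2O, 0.172, 0.607 and 0.0780 in IMQ+H2O and 0.0747, 0.183 and 0.585 in IMQ+XYF. Oca2 (ENSMUSG00000030450; chr7:56239760-56536518, plus strand, 27 exon blocks) had 3 to 55 counts per library, and CPM of 0.194, 0.306 and 0.737 in VAS+H2O, 0.103, 0.898 and 0.390 in IMQ+H2O and 0.324, 0.163 and 0.568 in IMQ+XYF. Slc45a2 varied 14.2-fold and Oca2 8.69-fold across the 9 libraries, and their groups overlapped. At these counts a change of several-fold in either gene could have gone undetected.

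Mitf and Mc1r, the regulator and the receptor, showed no rise or fall that passed the test. Mitf (ENSMUSG00000035158; chr6:97807052-98021349, plus strand, 12 exon blocks) had CPM of 22.2, 30.3 and 32.7 in VAS+H2O, 23.8, 39.4 and 22.6 in IMQ+H2O and 24.4, 7.32 and 22.8 in IMQ+XYF. IMQ+XYF replicate 2 stood apart at 7.32 CPM, while the other 8 libraries had at least 22.2 CPM. Mc1r (ENSMUSG00000074037; chr8:123407107-123410744, plus strand, 1 exon block) had 6 to 74 counts per library, and CPM of 0.606, 0.445 and 0.991 in VAS+H2O, 0.413, 0.946 and 0.254 in IMQ+H2O and 0.435, 0.122 and 0.438 in IMQ+XYF. All 3 IMQ+XYF values of Mc1r lay below all 3 VAS+H2O values, though the highest of the former, 0.438 CPM, was close to the lowest of the latter, 0.445 CPM. Mc1r shares 653 exon bases with Gm38092 on the opposite strand, which had at most 0.170 CPM.

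**Figure D1:**
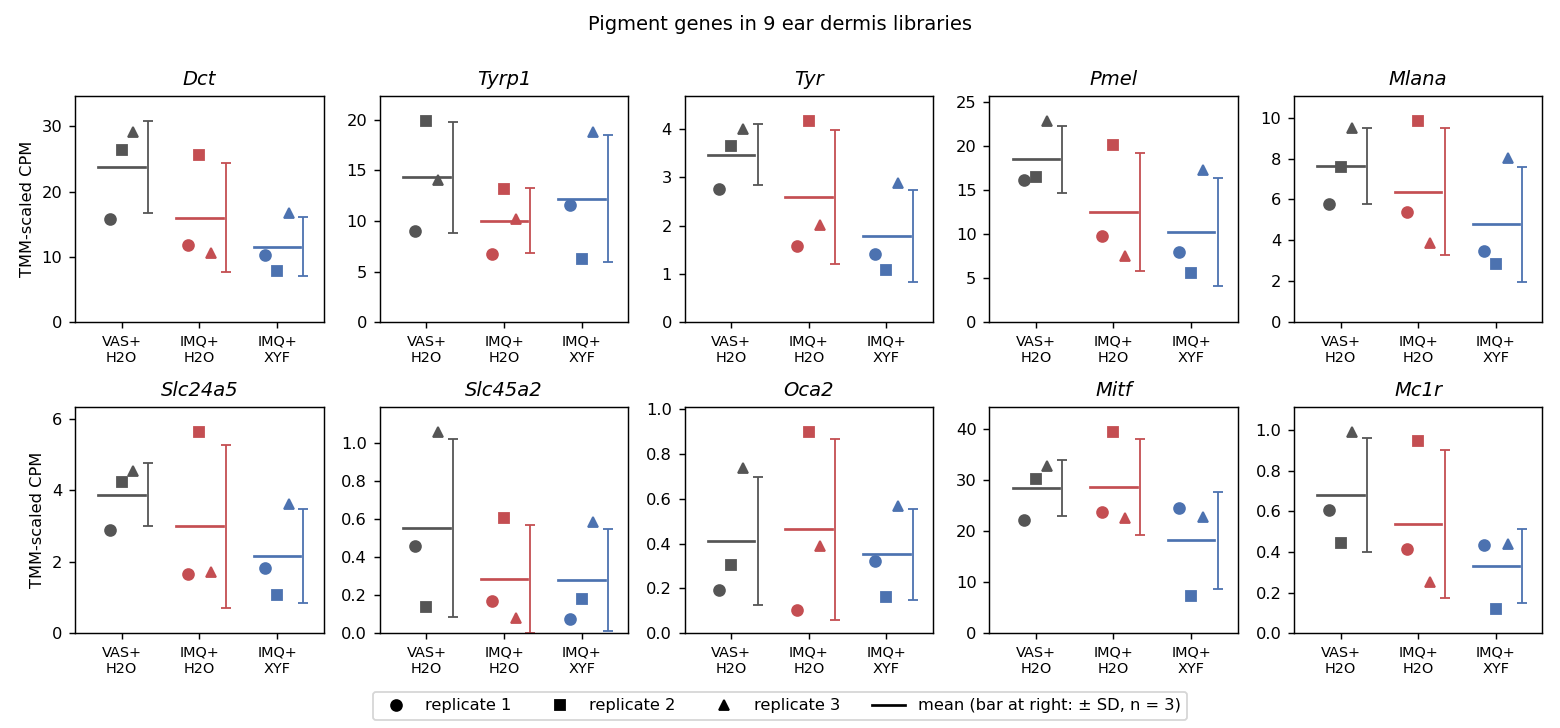
TMM-scaled CPM (vertical axes, linear from 0) of the 10 pigment genes in VAS+H2O, IMQ+H2O and IMQ+XYF, 1 symbol per library; horizontal lines are means and bars SD (n = 3). IMQ+H2O replicate 2 reached or exceeded the VAS+H2O mean for every gene except Tyrp1, and IMQ+XYF replicate 2 was the lowest library for 8 of the 10 genes.

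The genes varied together from library to library, also within a group. Without Mitf, the summed level of the other 9 genes was 53.5, 79.1 and 87.0 CPM in VAS+H2O, 37.5, 81.0 and 36.7 CPM in IMQ+H2O, and 37.4, 25.1 and 68.7 CPM in IMQ+XYF. The highest sum was 1.62 times the lowest within VAS+H2O, 2.21 times within IMQ+H2O and 2.74 times within IMQ+XYF. IMQ+XYF replicate 2 was the lowest library for 8 genes, all but Oca2 and Slc45a2. For every gene the highest library was VAS+H2O replicate 3 or IMQ+H2O replicate 2, except for Tyrp1, which was highest in VAS+H2O replicate 2. The log2 CPM of each gene had a Pearson r between 0.669 (Slc45a2) and 0.977 (Slc24a5) with the mean of the others over the 9 libraries, and between 0.630 and 0.969 after group means were removed. These r values are descriptive, since the points share libraries and their scaling.

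**Figure D2:**
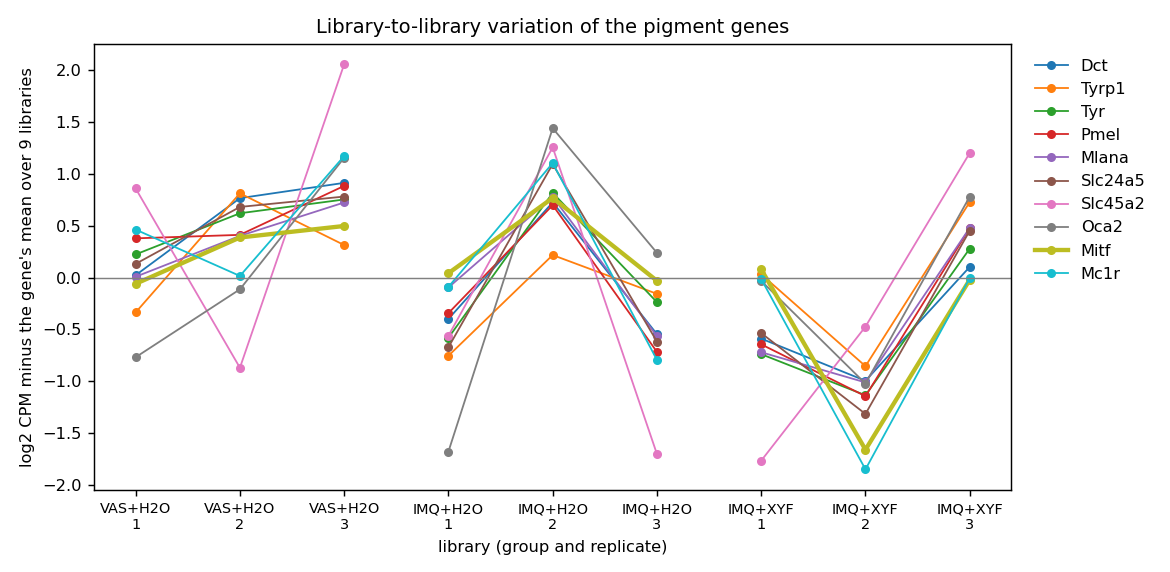
log2 CPM of each pigment gene minus its mean over the 9 libraries (vertical axis) in each library (horizontal axis), with lines joining libraries of a group only for legibility and Mitf drawn thicker. All 10 genes lie above their mean in IMQ+H2O replicate 2 and below it in IMQ+XYF replicate 2, where Mitf had 7.32 CPM.

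Marker genes of other cell types also differed between these libraries. A list of 10 mast cell genes, a cell type that also uses Mitf and Kit, summed to 262, 539 and 429 CPM in VAS+H2O, to 315, 719 and 445 CPM in IMQ+H2O, and to 325, 224 and 449 CPM in IMQ+XYF. The highest and lowest of these were IMQ+H2O replicate 2 and IMQ+XYF replicate 2, as for Mitf. A list of 10 dermal fibroblast genes summed to between 16760 and 27700 CPM in VAS+H2O, 11740 and 19010 in IMQ+H2O, and 12400 and 19560 in IMQ+XYF. The 12 Schwann cell genes summed to between 1089 and 2120 CPM in VAS+H2O, 1217 and 1756 in IMQ+H2O, and 725 and 1281 in IMQ+XYF, with the lowest value again in IMQ+XYF replicate 2. Cartilage, with 14 genes, ran from 2211 to 4641, from 660 to 1123 and from 1300 to 3585 CPM in the same order, and 10 skeletal muscle genes ran from 591 to 2770, from 1307 to 2818 and from 125 to 863 CPM. The 10 macrophage entries, with Itgam under both ENSMUSG00000030786 and ENSMUSG00000108596, ran from 675 to 1115, from 924 to 1373 and from 830 to 918 CPM. Epidermal genes, a list of 10, ran from 3795 to 6603, from 2222 to 3344 and from 3912 to 14890 CPM. Their highest sum was in IMQ+XYF replicate 1, where the 10 pigment genes summed to 61.8 CPM. Of these lists only Matn1 of cartilage had no count in any library. The part of cell composition in the pigment values was not tested.

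The first comparison asked what imiquimod changed. None of the 10 pigment genes was called in IMQ+H2O against VAS+H2O by edgeR's quasi-likelihood test, where a call needed an adjusted p of 0.05 or lower and an absolute log2 fold change of 1 or higher. Of all tested genes, edgeR called 0.994%. DESeq2 also called 0 of the 10, and 948 genes in all. An unadjusted p under 0.05 was reached by 0 of the 10 genes and by 20.9% of all genes. The libraries of the groups failed to overlap for 0 of the 10 and for 31.5% of all genes. With bulk RNA, fewer melanocytes and less RNA per melanocyte cannot be told apart. The fitted log2 fold change was negative for 8 of the 10 and for 11720 of the 22430 genes tested. The median was −0.39 against −0.023 for all genes. Because the 10 genes varied together, their directions are not separate observations. Dct had a log2 fold change of −0.57 (95% interval −1.50 to 0.36, adjusted p 0.452), Pmel −0.57 (95% interval −1.62 to 0.49, adjusted p 0.513) and Tyrp1 −0.51 (95% interval −1.49 to 0.47, adjusted p 0.528). Tyr had a log2 fold change of −0.42, Slc24a5 −0.37, Mlana −0.26 and Mc1r −0.36. Mitf was fitted at a log2 fold change of 0.013 (95% interval −0.93 to 0.95, adjusted p 0.991). For the 7 genes with a mean of 1 CPM or more, no interval went below −1.65. Slc45a2 at a log2 fold change of −0.98 (95% interval −3.24 to 1.27, adjusted p 0.604) and Oca2 at 0.15 (95% interval −1.61 to 1.92, adjusted p 0.927) were measured far less precisely. The median moved most with IMQ+H2O replicate 2, without which it was −1.01 and 3 of the genes had an unadjusted p under 0.05, with the lowest adjusted p at 0.215. That library had the highest pigment sum of its group, and the share of all genes with such a p was not taken for that fit. Without IMQ+H2O replicate 1 or 3 the median was −0.19 or −0.15, and without VAS+H2O replicate 3 it was −0.16.

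The second comparison asked what XYF changed in skin that received imiquimod. For IMQ+XYF against IMQ+H2O, 0 of the 10 genes were called by edgeR, against 0.00892% of all genes, which was 2 genes. DESeq2 called 0 of the 10, and 210 genes in all. An unadjusted p under 0.05 was seen for 0 of the 10 and for 11.7% of all genes, and groups did not overlap for 0 of the 10 and for 18.0% of all genes. The fitted log2 fold change was negative for 9 of the 10 genes and for 11046 of the 22430 tested. The median was −0.44 against 0.0054 for all genes. Mitf had a log2 fold change of −0.65 (95% interval −1.60 to 0.29, adjusted p 0.545), Mc1r −0.67 (95% interval −2.10 to 0.76, adjusted p 0.688) and Tyr −0.53 (95% interval −1.56 to 0.49, adjusted p 0.651). Dct was fitted at a log2 fold change of −0.47, Slc24a5 at −0.47, Mlana at −0.41, Oca2 at −0.41, Pmel at −0.28 and Slc45a2 at −0.033. Tyrp1 was the exception, with a log2 fold change of 0.28 (95% interval −0.69 to 1.26, adjusted p 0.817). The direction depended on a single library: without IMQ+H2O replicate 2 the median was 0.15, and 2 of the 10 genes were fitted lower. Without IMQ+XYF replicate 2 the median was −0.12, and without IMQ+XYF replicate 3 it was −0.91. Without IMQ+H2O replicate 1 it was −0.70.

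The last comparison set the treated group against the control. Between IMQ+XYF and VAS+H2O, 0 of the 10 genes were called by edgeR, against 1.20% of all genes. DESeq2 called 0 of the 10, and 712 genes in all. An unadjusted p under 0.05 was seen for 1 of the 10, Dct, and for 18.3% of all genes. Groups did not overlap for 1 of the 10, Mc1r, and for 22.1% of all genes. Both shares were below those of all genes. All 10 genes were fitted lower, as were 11821 of the 22430 tested, and the 10 varied together. Their median log2 fold change was −0.85 against −0.024 for all genes. Dct had a log2 fold change of −1.04 (95% interval −1.97 to −0.10, adjusted p 0.225), with an unadjusted edgeR p of 0.0331. Mc1r had a log2 fold change of −1.03 (95% interval −2.44 to 0.38, adjusted p 0.432) and Tyr −0.95 (95% interval −1.98 to 0.073, adjusted p 0.305). Slc45a2 had a log2 fold change of −1.02 (95% interval −3.22 to 1.18, adjusted p 0.648). Pmel was fitted at a log2 fold change of −0.85, Slc24a5 at −0.84, Mlana at −0.67, Mitf at −0.64, Oca2 at −0.26 and Tyrp1 at −0.23. Leaving out IMQ+XYF replicate 3 gave a median of −1.33 and 5 genes with an unadjusted p under 0.05. Without IMQ+XYF replicate 2 the median was −0.49, with 0 such genes. Replicate 3 had the highest pigment sum of its group and replicate 2 the lowest, and shares over all genes were not taken for these fits. This comparison shares its libraries with the other two, so its values are not a separate observation.

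**Figure D3:**
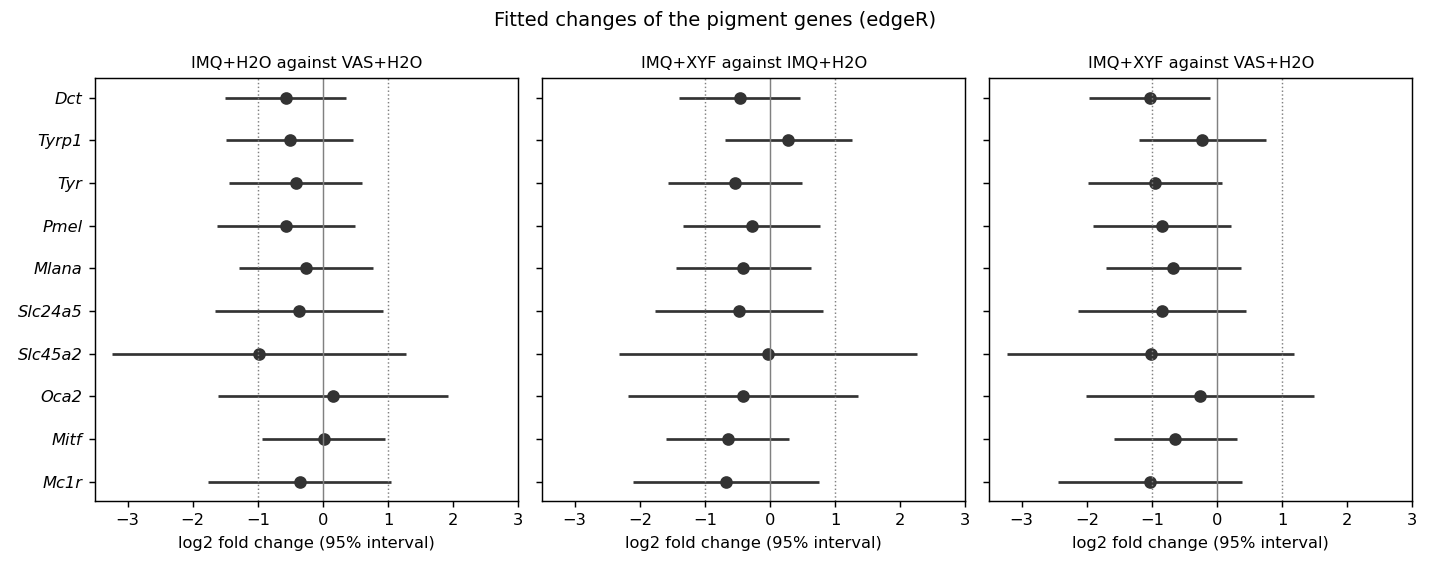
Fitted log2 fold changes (horizontal axes, points) with 95% intervals (lines) of the 10 pigment genes in the 3 comparisons; the solid line marks no change and dotted lines mark the absolute log2 fold change of 1. Every interval includes 0 except that of Dct in IMQ+XYF against VAS+H2O, whose adjusted p was 0.225.

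Hair growth offered a contrast within the same libraries. Keratin-associated proteins build the hair shaft, and the hair keratins listed belong to the shaft or, like Krt27, to the layers around it. Trichohyalin, Msx2 and Foxn1 belong to the inner sheath or to the growing matrix, where follicular melanocytes hand over pigment. Of 94 hair genes, 61 passed the filter on low counts. A gene could pass through its VAS+H2O counts alone, so the counts over them are descriptive. In IMQ+H2O against VAS+H2O, 23 of the 61 fell and 0 rose: 11 of 20 hair keratins, 2 of 14 matrix and growth regulators, and 10 of 27 keratin-associated proteins. Over all genes 0.994% were called there. With XYF, in IMQ+XYF against IMQ+H2O, 0 were called by edgeR and 2 by DESeq2. An unadjusted edgeR p under 0.05 was seen for 6 of the 61 and for 11.7% of all genes. Against VAS+H2O, 34 of the 61 fell in IMQ+XYF and 0 rose, beside 1.20% of all genes called. These calls depended on single libraries, as did calls over all genes. With 1 of the 6 compared libraries left out, between 0 and 14 hair genes were called in IMQ+H2O against VAS+H2O (0 without IMQ+H2O replicate 2 or 3), and between 0 and 38 in the comparison of IMQ+XYF with VAS+H2O (0 without VAS+H2O replicate 2). Calls over all genes fell there from 223 to 28 without IMQ+H2O replicate 2 and to 25 without replicate 3. In IMQ+XYF against VAS+H2O they fell from 270 to 12 without VAS+H2O replicate 2.

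The summed levels of hair genes separated VAS+H2O from the other groups, and those of the pigment genes did not. The 22 hair keratins summed to 128, 225 and 469 CPM in VAS+H2O, 31.3, 70.7 and 31.1 CPM in IMQ+H2O, and 58.0, 17.4 and 15.7 CPM in IMQ+XYF. The 57 keratin-associated proteins summed to between 27.9 and 119 CPM in VAS+H2O, and to between 0.644 and 1.72 CPM in the 6 libraries that received imiquimod. All 10 pigment genes summed to 75.7, 109 and 120 CPM in VAS+H2O, 61.4, 121 and 59.3 CPM in IMQ+H2O, and 61.8, 32.4 and 91.6 CPM in IMQ+XYF. For 29 of the 61 tested hair genes no IMQ+H2O library had more than 3 counts, and for 32 no IMQ+XYF library did. With the genes at the floor in each comparison set to their bound at 3 counts per library, the median log2 fold change of the hair genes was −4.14 in IMQ+H2O against VAS+H2O and −4.80 in IMQ+XYF against VAS+H2O, beside −0.39 and −0.85 for the pigment genes. The lowest bound of a 95% interval among the pigment genes was −3.24 in the former and −3.22 in the latter, both for Slc45a2. No test of the difference between the lists was made.

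Single hair genes differed in how far they separated the groups. Krt27, a keratin of the inner root sheath, had CPM of 9.02, 17.3 and 33.9 in VAS+H2O, 0.999, 2.57 and 0.800 in IMQ+H2O and 0.535, 0.224 and 0.422 in IMQ+XYF. Its log2 fold change with imiquimod was −3.78 (SE 0.62, adjusted p 0.0314). Krt83, a keratin of the hair shaft, had CPM of 4.68, 5.59 and 19.0 in VAS+H2O, 0.103, 0.170 and 0.195 in IMQ+H2O and 0.112, 0.285 and 0.0812 in IMQ+XYF, with a log2 fold change of −5.90 (SE 0.73, adjusted p 0.0166). Every VAS+H2O library stood above all other libraries for both genes. Msx2, a matrix regulator, had 5.98 ± 1.10 CPM in VAS+H2O, 1.80 ± 0.273 in IMQ+H2O and 4.05 ± 0.891 in IMQ+XYF (SD, n = 3), and fell with imiquimod by 1.73 on the log2 scale (SE 0.24, adjusted p 0.0230). Tchh, which encodes trichohyalin, had CPM of 40.0, 91.0 and 161 in VAS+H2O, 5.65, 15.9 and 3.53 in IMQ+H2O and 9.31, 3.90 and 4.59 in IMQ+XYF. It fell in IMQ+XYF against VAS+H2O, at a log2 fold change of −4.03 (SE 0.72, adjusted p 0.0370), while the log2 fold change for imiquimod alone was −3.54 (SE 0.70, adjusted p 0.0515). Foxn1, a regulator of hair shaft keratins, had CPM of 3.93, 4.70 and 4.47 in VAS+H2O, 0.999, 1.02 and 1.23 in IMQ+H2O and 9.06, 2.01 and 1.93 in IMQ+XYF, with a log2 fold change of −2.01 (SE 0.58, adjusted p 0.111) for imiquimod. Hoxc13 had between 0.796 and 4.90 CPM, Lef1 between 7.31 and 25.4 CPM, and Shh, which was not tested, at most 0.412 CPM. Both Hoxc13 and Lef1 overlapped between IMQ+H2O and VAS+H2O. Their edgeR log2 fold changes there were −0.81 (SE 0.64, adjusted p 0.498) and −0.65 (SE 0.36, adjusted p 0.331). Calls of Krt27, Msx2, Krt83 and Tchh were lost in 2 to 7 of their 14 alternative fits, with directions kept where the gene was called.

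By their sums, hair keratins and pigment genes ordered the libraries alike in VAS+H2O and IMQ+H2O, and differently in IMQ+XYF. IMQ+H2O replicate 2 was the highest IMQ+H2O library for both. In IMQ+XYF, replicate 1 had the highest sum of hair keratins, whereas replicate 3 had the highest sum of the 10 pigment genes. Krt75 alone gave 48.7, 15.3 and 13.4 CPM of the IMQ+XYF sums of 58.0, 17.4 and 15.7 CPM. Krt75 overlapped between IMQ+H2O and VAS+H2O, with an edgeR log2 fold change of −0.55 (adjusted p 0.602). As the mean of centred log2 CPM of the 20 tested hair keratins, replicate 1 was highest and replicate 2 lowest. On that scale replicate 2 was also the lowest IMQ+XYF library for the pigment genes. In VAS+H2O, replicates 1, 2 and 3 had the same order in the sums of hair keratins and of pigment genes.

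**Figure D4:**
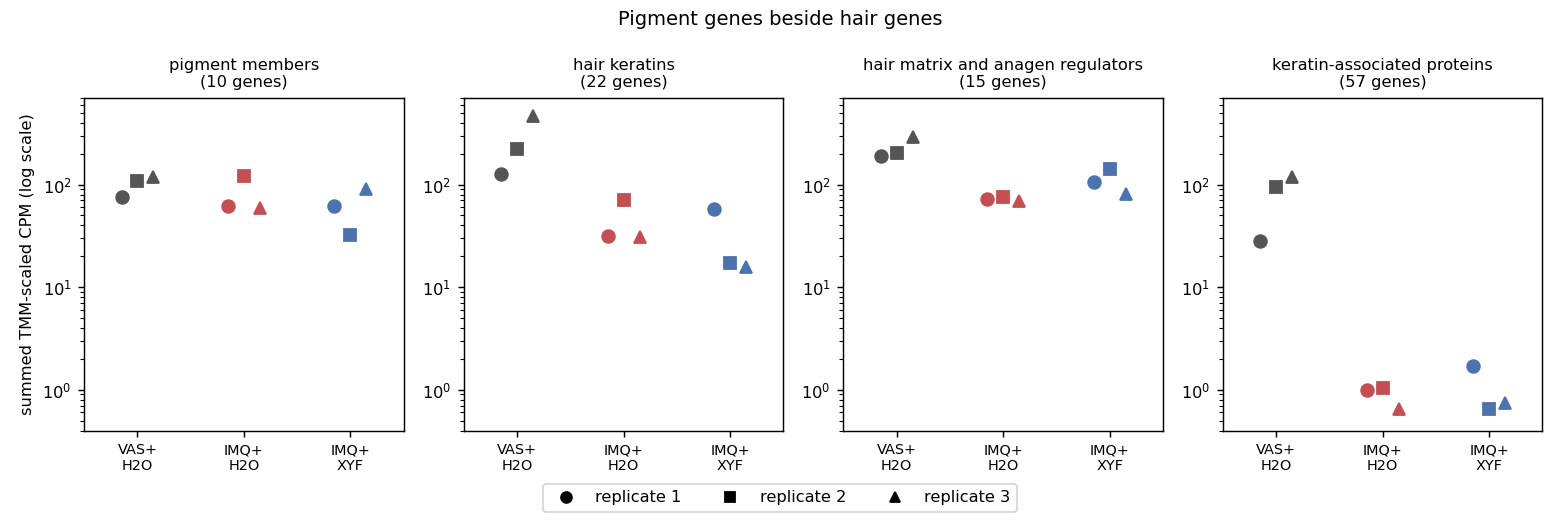
Summed TMM-scaled CPM (vertical axes, log scale) of the 10 pigment genes, 22 hair keratins, 15 hair matrix and growth regulators and 57 keratin-associated proteins, 1 symbol per library. The pigment sums overlap between groups from 32.4 to 121 CPM, while all 3 hair lists lie higher in VAS+H2O than in the libraries that received imiquimod.

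Around the 10 genes, a further 48 genes of the pigment pathway were listed, and 47 were tested. In IMQ+H2O against VAS+H2O 1 of the 47 rose and 0 fell, beside 0.994% of all genes called. The median log2 fold change was −0.034. With XYF 0 were called by edgeR and 0 by DESeq2 against IMQ+H2O. An unadjusted edgeR p under 0.05 was seen for 7 of the 47 and for 11.7% of all genes. Against VAS+H2O 1 of the 47 rose and 0 fell in IMQ+XYF, beside 1.20% of all genes called. The median there was −0.060. The gene that rose with imiquimod was agouti (symbol a, also Asip; ENSMUSG00000027596; chr2:154791402-155051012, plus strand). Agouti protein blocks the Mc1r receptor and shifts pigment from black to yellow. The C57BL/6 mice used here carry the nonagouti allele of this gene, and agouti protein was not measured, so the RNA values do not show its activity. The gene had CPM of 9.07, 10.7 and 8.79 in VAS+H2O, 29.4, 29.3 and 22.6 in IMQ+H2O and 21.2, 12.0 and 15.6 in IMQ+XYF. All IMQ+H2O values were above all others, and all VAS+H2O values were below all others. The log2 fold change was 1.51 (SE 0.22, adjusted p 0.0247) with imiquimod and −0.74 (SE 0.21, adjusted p 0.364) with XYF, where the change by XYF did not pass the test. The call with imiquimod was lost in 7 of 14 alternative fits, with each of the 6 libraries compared left out in turn and with a replicate block, at adjusted p from 0.0518 to 0.0965. The annotated exons of agouti share 147 bases with Raly on the same strand, which had between 60.8 and 106 CPM and a log2 fold change of 0.18 (adjusted p 0.634).

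Slc7a11 (ENSMUSG00000027737; chr3:49892526-50443614, minus strand) encodes the cystine transporter, which also supplies cysteine for yellow pheomelanin and for glutathione in many cells. Its CPM was 2.35, 3.81 and 2.29 in VAS+H2O, 9.71, 12.0 and 14.7 in IMQ+H2O and 51.3, 12.0 and 25.8 in IMQ+XYF. It rose in IMQ+XYF against VAS+H2O at a log2 fold change of 3.41 (SE 0.50, adjusted p 0.0239), and had a log2 fold change of 2.12 (SE 0.48, adjusted p 0.0703) in IMQ+H2O against VAS+H2O and 1.29 (SE 0.46, adjusted p 0.379) in IMQ+XYF against IMQ+H2O. The largest value was that of IMQ+XYF replicate 1, the library with the highest epidermal sum, and without it the log2 fold change against VAS+H2O was 2.75 with an adjusted p of 0.0574. In all, the call was lost in 8 of 14 alternative fits. In IMQ+H2O against VAS+H2O, where it was not called, Slc7a11 passed the limits in 4 of 14 alternative fits, and its adjusted p ranged from 0.000436 to 0.22.

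Signals and regulators of the lineage gave no further call. Edn3, a peptide that supports melanocyte growth, had CPM of 8.54, 12.7 and 16.4 in VAS+H2O, 4.86, 5.36 and 3.73 in IMQ+H2O and 4.39, 4.54 and 7.32 in IMQ+XYF. Every VAS+H2O library lay above the rest, and the log2 fold change was −1.43 (SE 0.30, adjusted p 0.0576) with imiquimod and −1.21 (SE 0.29, adjusted p 0.0738) in IMQ+XYF against VAS+H2O. It was called with imiquimod in 3 of 14 alternative fits. Its receptor Ednrb had CPM of 9.97, 18.0 and 17.9 in VAS+H2O, 22.0, 30.0 and 26.4 in IMQ+H2O and 18.3, 11.7 and 31.8 in IMQ+XYF, with a log2 fold change of 0.77 (SE 0.36, adjusted p 0.262) for imiquimod. Sox10, a factor of the neural crest lineage that Schwann cells also use, had CPM of 43.7, 30.2 and 68.4 in VAS+H2O, 78.8, 69.8 and 65.0 in IMQ+H2O and 46.9, 31.6 and 58.4 in IMQ+XYF, with a log2 fold change of 0.58 (SE 0.30, adjusted p 0.301) for imiquimod and −0.64 (SE 0.30, adjusted p 0.441) for XYF.

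Kit, the receptor for stem cell factor on melanocytes and mast cells, had CPM of 26.8, 32.4 and 25.8 in VAS+H2O, 22.4, 37.6 and 20.9 in IMQ+H2O and 15.5, 18.1 and 19.3 in IMQ+XYF. All 3 IMQ+XYF libraries lay below the other 6, and the log2 fold change was −0.61 (SE 0.22, adjusted p 0.382) with XYF and −0.68 (SE 0.22, adjusted p 0.150) against VAS+H2O. Trpm1, a channel of melanocytes, had CPM of 3.27, 5.28 and 5.33 in VAS+H2O, 2.89, 2.74 and 2.61 in IMQ+H2O and 1.51, 1.69 and 4.16 in IMQ+XYF, with a log2 fold change of −0.75 (SE 0.39, adjusted p 0.304) for imiquimod and −0.92 (SE 0.39, adjusted p 0.255) in IMQ+XYF against VAS+H2O. The remaining named genes are given as levels. Kitl, the ligand of Kit, had between 41.4 and 79.5 CPM, Pax3 between 1.97 and 6.74 CPM, and Gpnmb, a melanosome protein that macrophages also make, between 85.5 and 253 CPM. Pomc, the precursor of melanocyte-stimulating hormone, reached at most 0.508 CPM and had no count in VAS+H2O replicate 2. Gpr143, a melanosome receptor, was not tested, with at most 0.281 CPM. The 30 genes of melanosome formation and transport, many of them used in lysosomes of all cells, had a median log2 fold change of −0.028 with imiquimod and −0.021 with XYF.

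**Figure D5:**
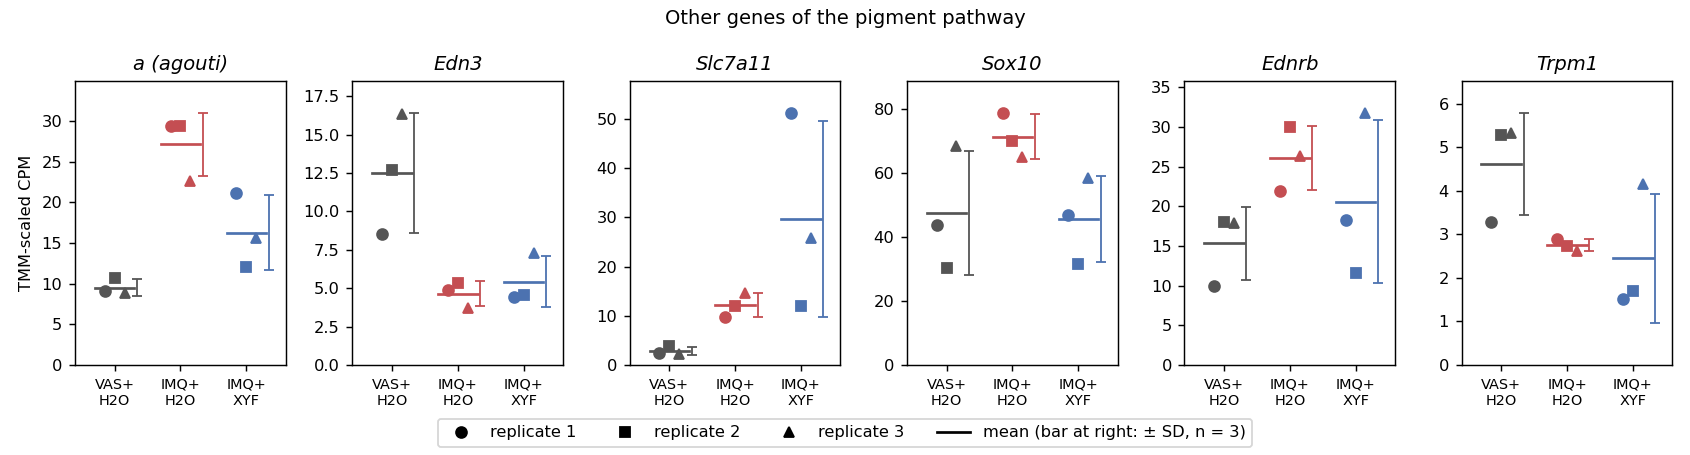
TMM-scaled CPM (vertical axes, linear from 0) of agouti, Edn3, Slc7a11, Sox10, Ednrb and Trpm1 in the 3 groups, 1 symbol per library, with means as lines and SD as bars (n = 3). Agouti is highest in all 3 IMQ+H2O libraries, Edn3 is highest in all 3 VAS+H2O libraries, and Slc7a11 spreads most in IMQ+XYF.

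The genes outside the list with the most similar pattern were Ednra, Ripor3, Mfng, Htra1 and Frem1. Their log2 CPM had a Pearson r from 0.912 to 0.923 over the 9 libraries with the mean of the centred pigment genes, and from 0.889 to 0.956 after group means were removed. They were the highest of 13668 genes considered, so large values were bound to occur, and the points share libraries and scaling.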

How the data were processed

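The deposited table held whole-number read counts per Ensembl gene in 9 libraries, with no normalization. Per the study's methods, the authors aligned reads with STAR to GRCm38 and tested counts with DESeq2; the counting tool, its use of strand and its treatment of multiply aligned reads were not given in the sources used here. Here all 9 libraries entered 1 edgeR 4.0.16 quasi-likelihood fit (R 4.3.3; filterByExpr, TMM), with Benjamini-Hochberg adjustment over 22430 genes and the study's limits (adjusted p 0.05, absolute log2 fold change 1). The common biological coefficient of variation was 0.296. On simulated data for IMQ+H2O against VAS+H2O (21932 genes), the fit recovered 53 of 69 genes changed by 1.5 on the log2 scale and 77 of 77 changed by 2, with 6 false calls. The simulation gave every gene the same spread and changed only genes with a mean count of 100 or more. Its recovery does not carry over to genes that vary more or have fewer counts, such as Oca2, Slc45a2 and Mc1r. DESeq2 1.42.0 and other settings served as alternatives. Genes, list members and lists were chosen with earlier results of these data known. Named beyond the 10 were called genes of the pathway lists, the 4 most abundant called hair genes, listed regulators, and the 5 genes most similar in pattern (mean scaled count of 100 or more). Of the other listed symbols, 1 was not matched. Annotation was GENCODE vM21 for GRCm38. Standard errors of log2 fold changes were derived from the F statistic.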

Additional observations from a re-analysis of the deposited data

How the results depend on the processing

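No pigment gene was called in any of the 3 comparisons under the alternatives run, which were DESeq2, its size factors in edgeR, no filter on low counts, a replicate block, the 2 compared groups alone, and each library left out. Over 30 fold changes and 419 alternative values, 23 turned sign, all when 1 library was left out, and 0 passed the limits. Slc45a2 could not be fitted in IMQ+XYF against IMQ+H2O with those 2 groups alone, since it failed their filter. With single libraries left out, the log2 fold change in IMQ+H2O against VAS+H2O ran from −0.73 to 0.021 for Mlana, −0.29 to 0.18 for Mitf, −0.71 to 0.91 for Oca2, −1.07 to 0.027 for Mc1r and −0.39 to 0.10 for Kit. In IMQ+XYF against IMQ+H2O it ran from −0.16 to 0.62 for Tyrp1, −0.82 to 0.055 for Dct, −0.88 to 0.25 for Pmel, −1.003 to 0.054 for Mlana, −0.92 to 0.45 for Oca2, −1.18 to 1.21 for Slc45a2, −1.05 to 0.36 for Slc24a5 and −1.0001 to 0.041 for Mc1r. There it ran from −0.054 to 0.36 for Edn3, −0.78 to 0.095 for Trpm1, −0.97 to 0.39 for Tchh and −0.68 to 0.23 for Krt83. In IMQ+XYF against VAS+H2O it ran from −0.68 to 0.13 for Tyrp1, −0.77 to 0.50 for Oca2, −0.30 to 0.30 for Sox10, −0.030 to 0.76 for Ednrb and −1.15 to 0.38 for Foxn1. Foxn1 in that comparison, −0.0051, was 0.029 with DESeq2, 0.032 with its size factors, 0.023 without the filter and 0.018 with the 2 groups alone. The cause was not tested.

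Whether replicate numbers pair the libraries is not known. Deviations of same-numbered libraries correlated between −0.18 and 0.12, which cannot decide it, since differently numbered libraries were not set beside them. With a replicate block, 86, 0 and 54 genes were called in the 3 comparisons in place of 223, 2 and 270, and 6, 0 and 5 hair genes in place of 23, 0 and 34. The median of the pigment genes under the block was −0.44, −0.41 and −0.85, and Krt83 in IMQ+XYF against IMQ+H2O was 0.097. DESeq2 called 948, 210 and 712 genes in all, and 48, 2 and 43 hair genes. Depth limits Oca2, Slc45a2 and Mc1r, which had as few as 3, 4 and 6 counts in a library.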

Other observations

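The ratio of Tyrp1 to Dct, both in CPM, was looked at after the values were seen. It was 0.570, 0.755 and 0.482 in VAS+H2O, 0.572, 0.514 and 0.958 in IMQ+H2O, and 1.12, 0.806 and 1.13 in IMQ+XYF. All 3 IMQ+XYF ratios lay above all 3 VAS+H2O ratios, and the IMQ+H2O ratios overlapped both groups. No test was made, because Tyrp1 and Dct were chosen for their values. The ratio of Tyrp1 to Pmel did not separate the groups. It was 0.556, 1.205 and 0.615 in VAS+H2O, 0.687, 0.654 and 1.35 in IMQ+H2O, and 1.46, 1.12 and 1.09 in IMQ+XYF.

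Cited1, a transcriptional regulator of pigment cells, was named after its values were seen. It had CPM of 0.897, 0.917 and 0.737 in VAS+H2O, 0.861, 1.07 and 0.468 in IMQ+H2O and 0.398, 0.264 and 0.406 in IMQ+XYF. Its IMQ+XYF values lay below all other libraries, with a log2 fold change of −1.14 (SE 0.37, adjusted p 0.366) against IMQ+H2O by edgeR.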
